A study of Sus scrofa with 599 samples.

Results

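The 500 autosomal 20 kb bins whose A-B index rose most between normal-diet and weight-loss pigs, averaged over 4 adipose tissues (ATs), are described here. The A-B index was first brought to the same distribution in every Hi-C sample by quantile normalisation. For each bin and AT the mean of the normal-diet samples (NC) was then taken from the mean of the weight-loss samples (WL), and the 4 differences were averaged. The 500 bins with the highest average were kept out of 113298, or 0.441% of all bins, and are called member bins below. The index values of NC and WL therefore chose the bins, and their difference is given as a description with no test. The weight-gain samples (WG) entered the choice only through the normalisation, which ran over all samples. The choice did not use the DNA sequence, the H3K27ac regions and the transcripts of the genes that start in the bins.

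The pigs were adult females of the Bama miniature breed, which kept a normal diet (NC), received a high-fat diet (WG), or received the high-fat diet and then a restricted intake (WL). WL pigs thus differed from NC pigs in past high-fat feeding as well as in the later restriction, and the effects of these feeding periods cannot be told apart in a WL against NC comparison. The ATs were 3 visceral ones, the greater omentum (GOM), the mesenteric AT (MAD) and the retroperitoneal AT (RAD), and 1 subcutaneous one, the upper layer of backfat (ULB). Hi-C was read in 240 samples: NC in 9 GOM, 12 MAD, 12 RAD and 5 ULB samples, WG in 46, 37, 40 and 39, and WL in 10 of each AT. RNA-seq was read in 236 of the samples, with 3337098 to 22939420 counts in protein-coding genes (PCGs) per library.

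Interphase chromosomes fold into an A compartment, which is open, rich in genes and largely transcribed, and a B compartment, which is compact and mostly silent. The A-B index scores each bin by how much more it contacts A than B regions, so that values above 0 mark A and values below 0 mark B, and a rise means a shift of contacts toward A. Compartment membership is set largely by cell type, and in adipose tissue the adipocytes share the sample with progenitor, vascular and immune cells. RNA and H3K27ac were read from whole tissue. For Hi-C the study's methods carried on with the upper, adipocyte-containing layer of the centrifuged tissue. The cells behind the index and the RNA may therefore differ, and how far other cells were removed was not tested. In bulk material fewer cells of a type and less RNA per cell cannot be told apart. Nor can a change in cell make-up and a change of folding within cells.

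The labelled tissue could be checked in the RNA of the same series. The summed level of the adipocyte markers found ranged from 4435 to 44893 TPM, the level of a transcript scaled to its length and to the library's depth, over the libraries, and no adipocyte marker was at 0 in all libraries of a group. No Hi-C or RNA sample repeated another one, and the highest correlation between any pair of index columns was 0.985. The deposited index gives no read depth per bin, so its precision is known only from the spread between samples. The share of TPM in PCGs differed between libraries and diets, with medians of 79.0% in NC GOM and 87.5% in WL GOM, and its part in the results was not tested beyond the fit given with the alternatives.

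The member bins clustered on few chromosomes. Chromosome 1 held 277 of them (55.4% of the member bins, and 2.02% of its own bins), chromosome 10 held 69 (1.99% of its bins), chromosome 13 held 66, chromosome 2 held 54 and chromosome 8 held 18. Chromosomes 3, 5, 6, 12, 14 and 15 held 16 together, and chromosomes 4, 7, 9, 11, 16, 17 and 18 held none. When each chromosome was normalised separately, 194 of the 277 chromosome 1 bins and 63 of the 69 on chromosome 10 were chosen again. The relative SD of the whole chromosome 1 index had a higher median in WL than in NC in every AT (0.895 against 0.852 in GOM). The part of such a chromosome-wide difference in the clustering was not tested. The 500 bins formed 350 runs of adjacent bins, of which 268 were single bins, and fell into 67 clusters when gaps of up to 2 Mb were bridged. The largest cluster, chr1:260740001-270440000 (Sscrofa11.1, as are all positions here), held 75 member bins and the starts of 28 PCGs, from MEGF9 to PTGES. It was followed by chr1:250920001-256720000 with 38 member bins and by chr2:140380001-144720000 with 32, where EGR1, CD14 and TMEM173 start.

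**Figure D1:**
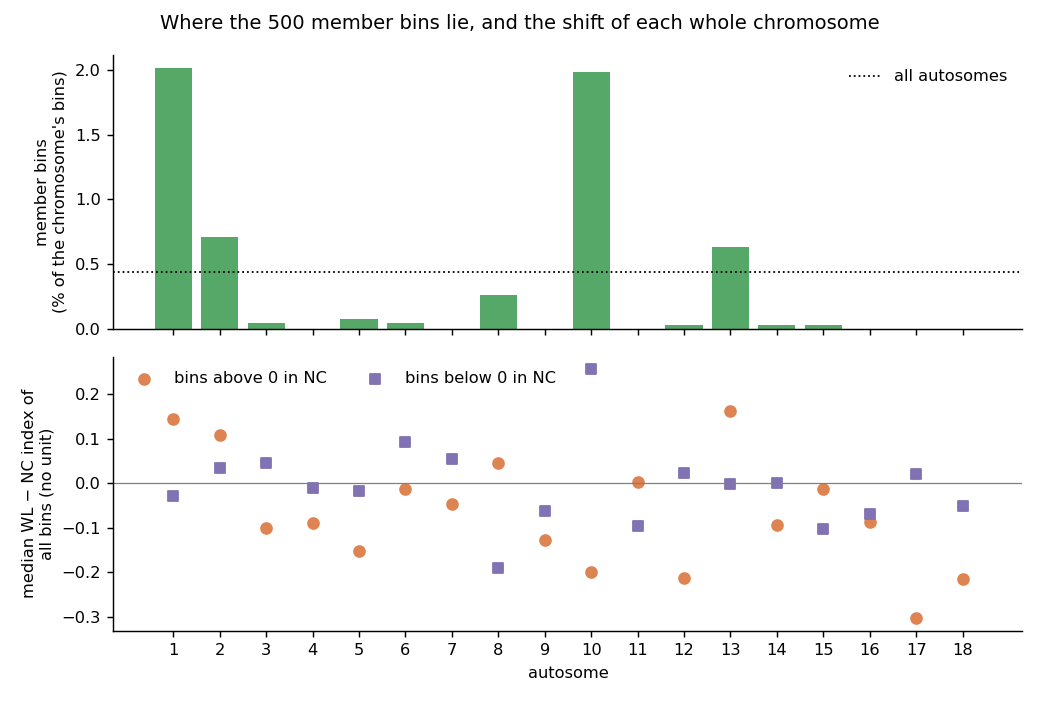
Upper panel: member bins as a percentage of the bins of each autosome, with the value over all autosomes (0.441%) as a dotted line. Lower panel: median WL minus NC index of all bins of each autosome, separately for bins above 0 in NC (circles) and below 0 in NC (squares). Chromosomes 1 and 10 stand highest above, with 2.02% and 1.99%. Below, bins above 0 in NC had positive medians on chromosomes 1, 2, 8, 11 and 13, and on chromosome 10 the bins below 0 had the highest median (0.256) of that kind.

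The promoters below belong to genes on which the later results turn: genes that start in member bins and whose RNA was called lower (RBPMS2) or higher (SMAD7) in WL in all 4 ATs, the gene with the largest mean rise among those called higher in at least 2 ATs (LRRC10B), and a gene that starts in a long run of member bins on chromosome 10 (TLR5). Each runs 5′ to 3′ on the gene's strand from 250 bases before to 50 bases after its start in the RefSeq annotation of Sscrofa11.1, in the order chr1:107259052-107259351 (plus strand), chr2:10019524-10019823 (minus), chr1:98543875-98544174 (minus) and chr10:19409975-19410274 (minus). Capitals mark the dinucleotide CG.
RBPMS2: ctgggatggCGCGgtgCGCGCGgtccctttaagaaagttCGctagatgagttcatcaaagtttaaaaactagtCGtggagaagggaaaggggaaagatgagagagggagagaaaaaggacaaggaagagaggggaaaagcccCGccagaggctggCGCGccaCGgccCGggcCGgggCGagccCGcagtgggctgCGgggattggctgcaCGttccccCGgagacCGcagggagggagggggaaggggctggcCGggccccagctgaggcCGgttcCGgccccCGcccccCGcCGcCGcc
LRRC10B: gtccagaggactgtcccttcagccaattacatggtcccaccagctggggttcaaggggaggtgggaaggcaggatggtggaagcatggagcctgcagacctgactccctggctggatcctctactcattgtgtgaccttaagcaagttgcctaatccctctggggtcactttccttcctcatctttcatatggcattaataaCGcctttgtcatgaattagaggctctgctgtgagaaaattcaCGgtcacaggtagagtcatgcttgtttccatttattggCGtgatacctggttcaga
SMAD7: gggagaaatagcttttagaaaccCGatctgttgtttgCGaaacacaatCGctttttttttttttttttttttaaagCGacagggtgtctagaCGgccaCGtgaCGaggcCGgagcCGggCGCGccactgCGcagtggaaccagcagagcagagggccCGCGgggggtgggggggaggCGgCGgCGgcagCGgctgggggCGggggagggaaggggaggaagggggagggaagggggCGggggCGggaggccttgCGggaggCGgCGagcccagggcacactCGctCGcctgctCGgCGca
TLR5: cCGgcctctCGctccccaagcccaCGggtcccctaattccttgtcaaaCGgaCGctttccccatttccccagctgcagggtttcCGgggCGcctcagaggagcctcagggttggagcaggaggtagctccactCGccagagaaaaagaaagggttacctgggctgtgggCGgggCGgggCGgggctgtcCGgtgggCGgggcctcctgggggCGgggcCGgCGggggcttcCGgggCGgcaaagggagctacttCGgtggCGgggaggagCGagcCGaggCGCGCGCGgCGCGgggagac

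These 4 windows held 26, 3, 28 and 28 CG in that order, so that LRRC10B alone of the 4 lacked a CG-dense promoter. Over all 177 PCGs that start in member bins, the median was 22 CG per 300-base promoter, against 16 over 18685 autosomal promoters. At least 15 CG stood in 124 of the 177 (70.1%), against 53.0% of all promoters. GATC, the site that the MboI digestion of the Hi-C protocol cuts, stood in 55.4% of the 177 and in 45% of all promoters. Both motifs read the same on both strands, and a CG and a GATC can share bases. A match is a description of the letters, and the promoters of the 500 bins that fell most held a median of 15 CG.

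The index of the member bins was higher in WL than in NC in every AT, and WG lay between them. The rule selected for the former on average over ATs and favours the latter. In GOM the mean index over the 500 bins was 2.06 ± 0.388 in NC (SD, n = 9), 2.97 ± 0.497 in WG (n = 46) and 3.46 ± 0.529 in WL (n = 10). In MAD it was 2.30 ± 0.397 (n = 12), 3.11 ± 0.550 (n = 37) and 3.74 ± 0.465 (n = 10). RAD had 2.25 ± 0.307 (n = 12), 3.24 ± 0.787 (n = 40) and 3.85 ± 0.239 (n = 10). The same order held in the subcutaneous AT, where ULB had 2.22 ± 0.347 (n = 5), 3.09 ± 0.592 (n = 39) and 3.45 ± 0.507 (n = 10).

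By sample, the NC means ranged from 1.58 to 2.64 in GOM (median 2.01), 1.6 to 3.04 for MAD (2.38), 1.73 to 2.61 for RAD (2.30) and 1.82 to 2.59 for ULB (2.09). The WL means ranged from 2.16 to 4.16 in GOM (median 3.54), 2.57 to 4.21 for MAD (3.83), 3.53 to 4.37 for RAD (3.79) and 2.63 to 4.21 for ULB (3.45). NC and WL were thus apart in RAD and ULB and overlapped in GOM and MAD through the lowest WL sample, replicate 10 in both, while the other 9 WL samples lay above every NC sample. The choice of bins used these samples, so the gap between NC and WL is a description. WG samples spread over both ranges, namely 1.93 to 3.96 for GOM, 2.13 to 4.16 for MAD, 1.67 to 4.61 for RAD and 2.06 to 4.40 for ULB. Of them, 31 of 46 GOM, 19 of 37 MAD, 30 of 40 RAD and 31 of 39 ULB samples lay above the highest NC sample, and 3, 5, 26 and 8 lay below the lowest WL sample.

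**Figure D2:**
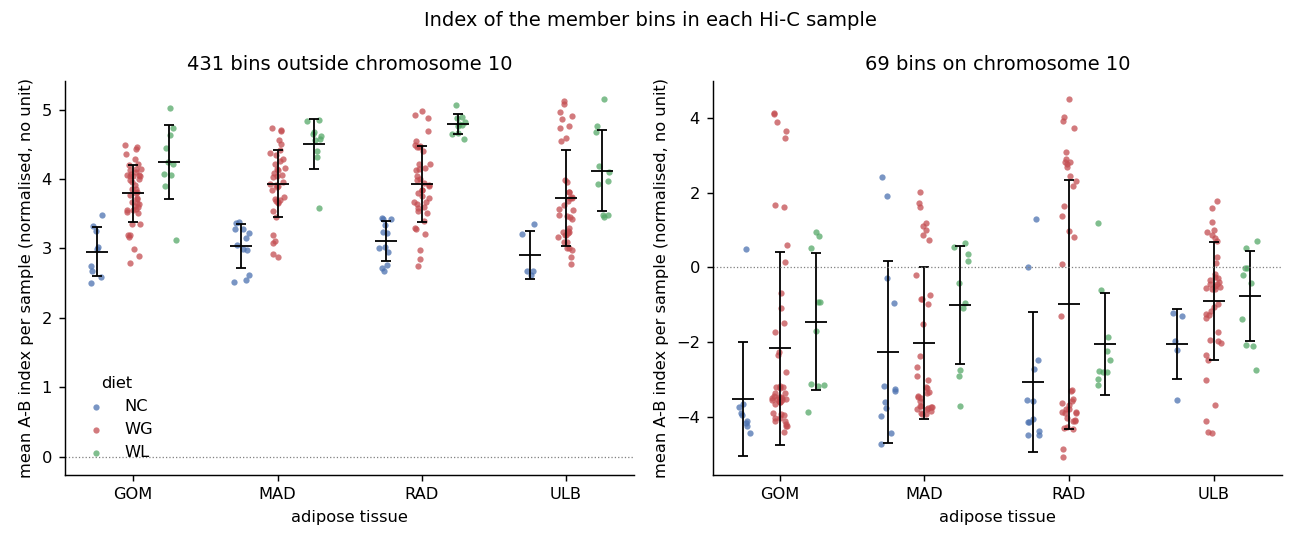
Mean normalised A-B index per Hi-C sample by AT (x axis) and diet (colour), over the member bins outside chromosome 10 (left) and the 69 on it (right). Each point is 1 sample, and black bars give the mean and SD of a group. On the left all WL samples of MAD, RAD and ULB and 9 of 10 of GOM lie above the highest NC sample. On the right every group but NC ULB holds samples on both sides of 0.

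The value that chose the bins had a median of 1.34 over the member bins, against -0.02 over all bins, and ranged from 1.18 to 3.08. The last 3 bins kept had 1.1798, 1.1797 and 1.1793 and lay at chr1:43300001-43320000, chr1:105080001-105100000 and chr13:32960001-32980000, the last inside CACNA2D2. The next 3, not kept, had 1.1785, 1.1781 and 1.1776, at chr13:197000001-197020000 (the start of IFNGR2), chr1:265280001-265300000 (in NR5A1) and chr2:142140001-142160000 (in SLC4A9). The limit therefore fell in a continuous range of values and marked no break.

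The highest bin, chr10:24940001-24960000, lay within a protein-coding locus with no start in the bin. Its mean index was -14.1 in NC GOM, -10.2 in WG GOM and -12.5 in WL GOM, and in RAD it was -14.5, -10.2 and -8.26. The normalised scale ends at -14.7, and this bin stood at that end in 29 of 38 NC, 54 of 162 WG and 6 of 40 WL samples and at the opposite, highest end in 9 WG samples. A sample at the lowest end could differ from the others in 1 direction only. No other member bin reached the lowest value in a sample. The second, chr13:203480001-203500000, lies between genes 0.785 kb from PCP4. Its mean index was above 0 in every group, and its lowest NC MAD sample was at -0.04. Its NC, WG and WL means were 4.38, 5.28 and 7.52 in GOM, and 3.99, 6.31 and 7.59 in MAD. No PCG that could be matched to a deposited identifier starts in any of the 10 highest bins, which otherwise lay within SUSD4 (2 bins of chromosome 10), SLC25A25 and a locus of chromosome 14, and outside protein-coding genes on chromosome 1 near RAB14, STOM, DAB2IP and SMAD7. The bins near RAB14 and STOM overlap GSN, which the annotation used does not list as protein-coding.

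The longest run had 10 adjacent bins, chr1:98440001-98640000, and held the start of SMAD7 and part of CTIF. Averaged over ATs, its index was 3.43 (NC), 4.37 (WG) and 5.16 (WL). The next runs were chr10:820001-940000 (6 bins, over part of RGS2; -2.49, -0.98 and -1.0), chr10:19400001-19500000 (5 bins, TLR5 and SUSD4; -8.37, -6.31 and -6.26), chr1:261660001-261760000 (5 bins, the start of DAB2IP; 3.12, 4.12 and 4.90) and chr1:15060001-15160000 (5 bins, within MTHFD1L; 2.36, 3.12 and 3.96). WG lay between NC and WL in the chromosome 1 runs and close to WL in both chromosome 10 runs.

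WG lay between NC and WL in most member bins taken one by one. This was so for 474 of the 500 GOM values, 483 of the MAD, 432 of the RAD and 431 of the ULB values. WG was at or above WL in 26, 6, 67 and 68 bins and at or below NC in 0, 11, 1 and 1. Averaged over the bins, WG exceeded NC by 0.911, 0.810, 0.993 and 0.861 (GOM, MAD, RAD and ULB), and WL was above WG by 0.488, 0.634, 0.601 and 0.360. The differences share their NC, WG or WL samples and the NC and WL values chose the bins, so no test was made between them. Choosing bins with a low NC and a high WL mean by itself favours WG values between them. The counts of bins with WG between are therefore a description, and the share over all bins is not given here.

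**Figure D3:**
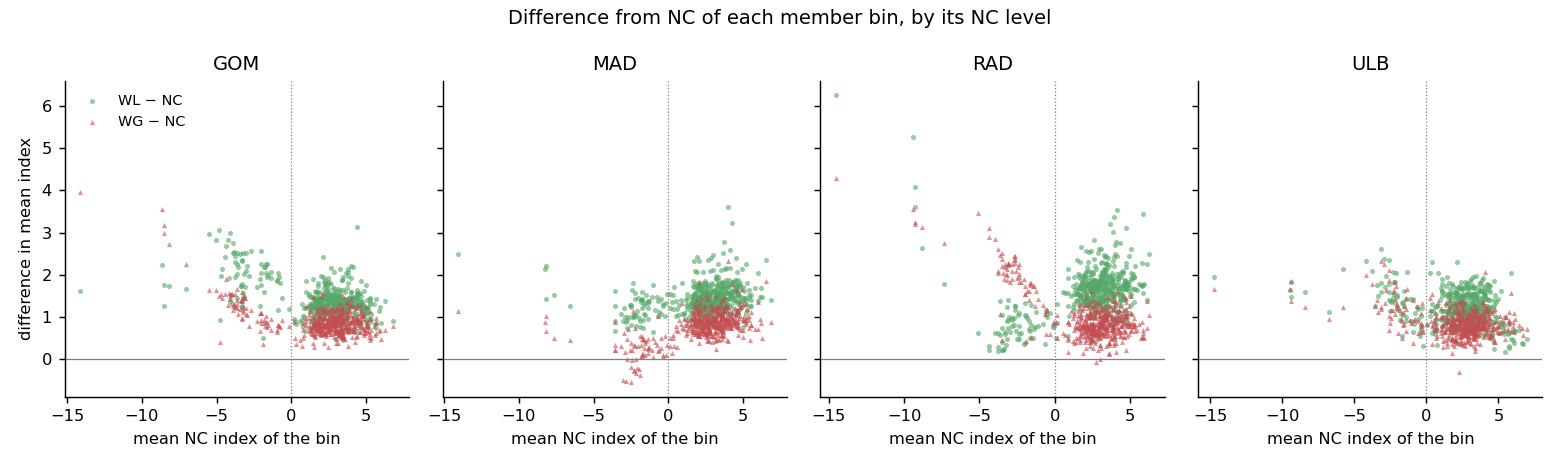
Difference in mean index from NC of each member bin in each AT, against its mean index in NC, for WL and WG (colours and markers). Points to the right of 0 on the x axis were in A in NC. The WL points lie above 0 for all 500 bins in all 4 ATs, and most WG points lie below the WL points of the same bin.

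The 4 ATs moved alike in the member bins. All 500 were higher in WL in all 4 ATs, which held for 19.6% of all bins, and 408 were higher by more than 0.75 in all 4, which held for 0.733% of all bins (831). Their differences averaged 1.59 for RAD, 1.44 for MAD, 1.40 for GOM and 1.22 for ULB. RAD had the largest difference of the 4 ATs in 291 bins and ULB the smallest in 239. Since the average over ATs chose the bins, this agreement is a description.

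Bins chosen anew could be compared in an AT that took no part in that choice. This is no test of the 500 member bins, whose choice used all 4 ATs. For each AT, the 500 highest bins were chosen again on the other 3 ATs, and the index of WL and NC samples was compared in the AT left out with limma over all 113298 bins. Of the 500 bins, 394 were higher in WL at an adjusted p below 0.05 in GOM, where 3.82% of all bins were called higher in WL. The MAD count was 416 (8.12% of all bins), the RAD count 350 (13.4%) and the ULB count 260 (7.3%). The estimate was above 0 for 499, 500, 485 and 499 of the 500 bins, with median differences of 1.23, 1.33, 1.36 and 1.06. The ATs of a diet came from the same pigs, so the AT left out is no independent set of animals. Neighbouring bins are not independent either, so the counts of bins are not counts of separate results. The ULB count was 162 without NC ULB replicate 5, 170 without replicate 9 and 163 without replicate 12, and 151 when each chromosome was normalised separately.

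Most calls came from outside chromosome 10. Of the bins chosen for the test, those on chromosome 10 were called higher in 4 of 19 cases for GOM, 5 of 78 for MAD, 7 of 132 for RAD and 9 of 55 for ULB. Elsewhere 390 of 481, 411 of 422, 343 of 368 and 251 of 445 were called. The median difference of the chromosome 10 bins was 1.66, 1.07, 0.489 and 0.954 in the 4 ATs, so the missing calls in GOM went with a difference above that of the other bins (1.21).

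The member bins shifted within A more often than from B to A. In NC, 427 of the 500 had a mean index above 0 and 73 below, and 16 of the 73 were above 0 in WL. With a bin called A where at least 70% of samples were above 0, 419 member bins were A in all 4 ATs of NC pigs, 423 of WG pigs and 427 of WL pigs, where 41.2%, 42.1% and 42.8% of all bins were. With B called where at most 30% were above 0, 44 were B throughout the 4 ATs in NC, 10 were in WG and 22 were in WL, where 44.5%, 45.4% and 46% of all bins were. A full switch, from under 20% of NC samples to over 80% of WL samples above 0, was made by 1 member bin each in GOM, RAD and ULB and by none in MAD, and by 35, 60, 109 and 122 of all 113298 bins in GOM, MAD, RAD and ULB. From B to A by the 70% and 30% limits went 4, 3, 1 and 5 member bins (0.8%, 0.6%, 0.2% and 1.0%), against 0.32%, 0.341%, 0.477% and 0.857% of all bins.

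The chromosome 10 bins differed from the rest. Of the 69, 68 lay in the first 30 Mb and 66 were below 0 in NC. Their mean index ranged from -4.45 to 0.49 over NC GOM samples, from -4.40 to 4.14 in WG GOM and from -3.88 to 0.95 in WL GOM, and in RAD from -4.50 to 1.29, -5.08 to 4.51 and -3.15 to 1.20. The groups overlapped widely, with 1 of 9 NC, 9 of 46 WG and 3 of 10 WL samples above 0 in GOM, and 2 of 12, 18 of 40 and 1 of 10 in RAD. In MAD and RAD no WL sample lay above the highest NC sample. The 431 member bins elsewhere kept the groups apart, with NC means of 2.95, 3.03, 3.10 and 2.91 and WL means of 4.25, 4.51, 4.79 and 4.12 in GOM, MAD, RAD and ULB, and all WL samples above all NC samples except 1 of GOM. These NC and WL values chose the bins, so the separation is a description.

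The sequence of the chromosome 10 bins was not that of other B bins. The 66 member bins of chromosome 10 that were below 0 in NC had a median GC content of 48.7% and 24.6 CpG per kb, and 36.4% held a gene start. The 57072 bins below 0 on the other autosomes had 38.2%, 6.9 CpG per kb and 6.0%. An H3K27ac enhancer region of an NC or WL AT overlapped 66.7% to 80.3% of the former and 11% to 16.5% of the latter. On the other autosomes the index and the GC content of a bin were correlated in every sample, with median r of 0.54 (NC), 0.53 (WG) and 0.55 (WL) over 109830 bins. In the first 30 Mb of chromosome 10 (1500 bins) the medians were -0.04, 0.05 and 0.16, and r was below 0 in 25 of 38 NC, 78 of 162 WG and 13 of 40 WL samples. In the remaining 1968 bins of the chromosome they were -0.22, 0.10 and 0.41, with r below 0 in 23 NC, 78 WG and 14 WL samples and from -0.40 to 0.59 over all samples. Negative r thus occurred along the whole of chromosome 10, and in a larger share of NC than of WL samples. These r are across bins of 1 sample, which are not independent, and are given without a test. Whether the sign of the index was set alike in all samples on chromosome 10 was not tested, and values for its bins are given apart for that reason.

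The member bins held more GC and more genes than all bins, and than other bins in the middle of their NC index range. Their median GC content was 47.2%, against 40.6% over all bins, 37.2% over the 500 bins that fell most and 44% over 15552 other bins whose mean NC index lay in the middle range of the member bins (2.20 to 3.75). CpG stood at 17.5 per kb against 9.7, 6.5 and 14.3. GATC sites numbered 38.2 per 10 kb against 29, 26 and 31.5. A gene start lay in 134 member bins (26.8%), against 13.5%, 12.6% and 22.1%, while repeats took 33.8% of the bases against 34.4%, 37.7% and 34%. The member figures cover all 500 bins, 73 of them below 0 in NC, so the sets were not matched on index. Outside chromosome 10, the 431 member bins had a median GC content of 47.0%, and 25.5% of them held a gene start. A bin with more GATC sites can give more Hi-C contacts, and the part of site density in the index was not tested.

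H3K27ac, a histone mark of active enhancers and promoters, covered the member bins in NC as in WL. An enhancer region overlapped 379 to 417 of the 500 bins (75.8% to 83.4%) in the 4 NC ATs and 395 to 428 (79.0% to 85.6%) in WL, against 35% to 40.5% of all bins and 66.0% to 73.1% of the bins with an NC index of 2.20 to 3.75. The 500 member bins were not limited to that range. In MAD 67 member bins had a region in WL and not in NC and 18 the reverse, in ULB 60 and 25, in GOM 44 and 46 and in RAD 27 and 45, so the direction differed between ATs. Over all bins the shares found only in WL and only in NC were 9.33% and 5.06% in MAD, 8.07% and 5.18% in ULB, 4.57% and 7.71% in GOM and 6.90% and 9.62% in RAD. There was 1 table per diet and AT for NC and WL, with no replicate, so that the spread between pigs is unknown, and the NC tables write chromosome names in another form than the WL tables. The tables rest on unequal numbers of libraries, and that of NC MAD on 1. Regions numbered 20646 in NC and 25450 in WL for MAD, 19558 and 25311 for ULB, 20169 and 22783 for GOM, and 20732 and 21825 for RAD. Boundaries of topologically associating domains (TADs) lay in 6.0% to 9.3% of member bins as group means, against 8.4% to 9.8% of all bins.

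Of the 177 PCGs that start in member bins, 143 could be matched to a deposited gene identifier, and 129 to 133 passed the filter on low values in a given comparison (TPM above 0.5 in at least 80% of the samples of either group). A gene was called differentially expressed (DEG) at an adjusted p below 0.05 in edgeR's quasi-likelihood test over all genes and a change of more than 1.5-fold. In GOM, 26 of 133 were called higher and 12 lower in WL than in NC (19.5% and 9.0%), where 15.4% and 20.7% of all genes tested were called. In MAD there were 20 and 17 of 133 (15% and 12.8%), against 15.2% and 17.8%. RAD had 16 and 11 of 130 (12.3% and 8.5%), against 10.2% and 16.6%, and ULB had 8 and 5 of 131 (6.1% and 3.8%), against 5.39% and 9.37%. Called either way were 38, 37, 27 and 13 genes in this order of ATs, where 36.1%, 33.1%, 26.7% and 14.8% of all genes were. The share called higher thus lay near that of all genes, above it in GOM, RAD and ULB and not in MAD, and the share called lower lay below it in every AT.

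The scale of the RNA values bears on these counts. With limma on log2(TPM + 0.5), an alternative chosen after seeing the data, all genes had a median log2 change of 0.28 (GOM), 0.21 (MAD), 0.31 (RAD) and 0.25 (ULB), where edgeR's scaling put it within 0.03 of 0. The genes of member bins called higher and lower were then 48 and 4 for GOM, 35 and 5 for MAD, 41 and 4 for RAD and 22 and 1 for ULB. Over all genes, 70.6%, 73.5%, 79.4% and 82.9% of the calls were then higher in WL, against 42.8%, 46.1%, 38.1% and 36.5% with edgeR. Of the 71 WL against NC calls of the genes named below, 57 were kept on the TPM scale and none was reversed.

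In WG against NC, 21 genes of member bins were called higher and 7 lower in GOM (12.2% and 14.5% of all genes), 7 and 2 in MAD (5.38% and 5.29%), 14 and 4 in RAD (7.1% and 9.6%) and 1 and 0 in ULB (0.507% and 1.87%). In WL against WG the calls were 1 and 0 in GOM (2.55% and 2.71%), 7 and 9 in MAD (8.26% and 9.17%), 1 and 4 in RAD (2.24% and 4.13%) and 8 and 6 in ULB (3.22% and 4.9%). Called either way were 28, 9, 18 and 1 genes of WG against NC in this order (26.7%, 10.7%, 16.7% and 2.38% of all genes) and 1, 16, 5 and 14 of WL against WG (5.26%, 17.4%, 6.37% and 8.12%). At an unadjusted p below 0.05 (edgeR), 22 of 133 genes passed in WL against WG in GOM and 14 of 131 in WG against NC in ULB. In the remaining comparisons, WL against NC among them, 30 to 75 passed. The share of all genes at this limit is not given here, so these counts are a description only. These comparisons share samples and are set side by side only.

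**Figure D4:**
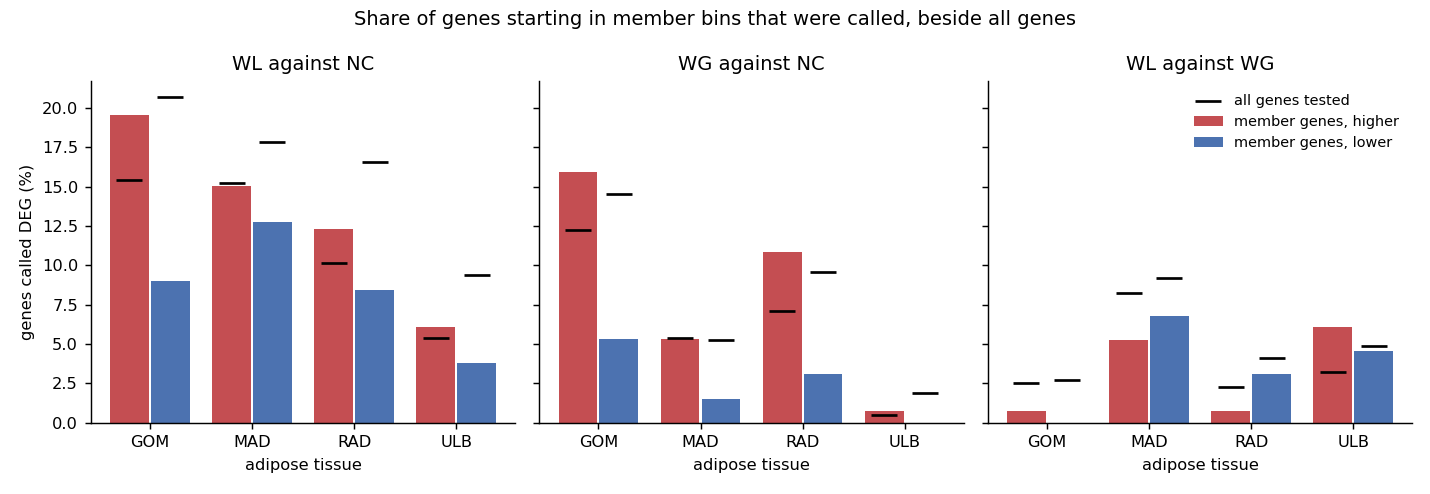
Percentage of tested genes starting in member bins that were called higher (red) or lower (blue) in each AT, for WL against NC, WG against NC and WL against WG, with short black lines for all genes tested. The blue bars of WL against NC lie below their lines in all 4 ATs.

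Genes called in the same direction in at least 2 ATs numbered 16 higher and 14 lower in WL, of 135 genes tested in some AT, where 11% and 17.4% of 15047 genes were so called. SMAD7, SLC25A25, LMCD1 and GTPBP3 were higher and RBPMS2 was lower in all 4 ATs. No gene of a member bin was called in opposite directions in different ATs. On chromosome 10, 17 or 18 genes of member bins were tested per AT, of which 1, 3, 1 and 0 were called higher and 4, 4, 3 and 0 lower in GOM, MAD, RAD and ULB.

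SMAD7, an inhibitory SMAD that limits signalling by transforming growth factor β, starts at chr1:98543924 in the longest run of member bins. Its bin had a mean index of 3.97 (NC), 4.83 (WG) and 5.51 (WL). In GOM its TPM ranged from 6.34 to 11.8 in NC (median 8.64), from 8.83 to 47.3 in WG (16.4) and from 21.2 to 52.7 in WL (32.8). Every WL library of GOM lay above every NC library, and the log2 fold change was 1.59 ± 0.16 (SE; adjusted p = 7.9e-08, edgeR). In MAD the medians were 11.6 in NC, 20.3 in WG and 40.9 in WL, in RAD 8.33, 17.3 and 38.6, and in ULB 9.37, 10.9 and 23.7. The WL and NC libraries overlapped in those 3 ATs, with log2 fold changes of 1.09, 1.52 and 0.97, and the ULB call was lost without NC ULB replicate 9. SMAD7 was also called higher in WL than in WG in all 4 ATs, by 0.79 to 0.93 on the log2 scale.

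LMCD1, a LIM domain protein that acts as a transcription cofactor, starts at chr13:64933692 in a bin of lower index (0.93 in NC, 1.51 in WG and 2.13 in WL). Its TPM ranged from 21.1 to 45.2 in NC ULB (median 28.4), from 27.6 to 114 in WG ULB (55.6) and from 62.1 to 134 in WL ULB. NC and WL were apart in GOM, RAD and ULB, and the log2 fold changes were 0.73, 0.71, 1.02 and 1.43 in GOM, MAD, RAD and ULB. ULB, the subcutaneous AT, thus had the largest estimate, but the difference between ATs was not tested.

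SLC25A25, a mitochondrial carrier that exchanges ATP-magnesium for phosphate, starts at chr1:268531752. Its TPM ranged from 6.84 to 11.7 in NC ULB (median 10.7), from 5.13 to 29.5 in WG (13.6) and from 14 to 47.6 in WL (27.1), with NC and WL apart. The log2 fold changes were 1.14, 0.84, 0.92 and 1.22 in the 4 ATs. GTPBP3, a mitochondrial enzyme of transfer RNA modification that starts at chr2:60355403, had GOM levels of 3.51 to 5.77 TPM in NC and 11.3 to 16.2 in WL, which were apart, and log2 fold changes of 1.28, 0.60, 0.87 and 0.79, the last not called without NC ULB replicate 5 or 9. TRUB2, a pseudouridine synthase found in mitochondria, was called higher in GOM and RAD (0.94 and 0.61).

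Genes called higher in the 3 visceral ATs, and not in ULB, were TTLL3, NTMT1, MGAT2, TRADD and FCHSD1. TTLL3, a tubulin glycylase, had medians of 49 TPM in NC and 180 in WL in GOM, and log2 fold changes of 1.44, 1.17 and 0.95 in GOM, MAD and RAD. MGAT2, an enzyme of N-glycan synthesis, ranged from 20.3 to 31.4 TPM in NC GOM and from 51.7 to 77.2 in WL GOM, and NTMT1, an N-terminal methyltransferase, from 1.99 to 4.23 and from 6.13 to 16.6. TRADD, an adaptor of the tumour necrosis factor receptor, had log2 fold changes of 0.97, 0.75 and 0.69. The ULB estimates of TTLL3, NTMT1, FCHSD1, MGAT2 and TRADD were also above 0 (0.70, 0.77, 0.73, 0.45 and 0.40), with adjusted p of 0.077, 0.075, 0.086, 0.11 and 0.10 in edgeR, and the difference from the visceral ATs was not tested. TMCO6 was called higher in GOM and MAD and PTGS1, which encodes cyclooxygenase 1, in RAD and ULB, the ULB call being lost without NC ULB replicate 2, 5 or 7.

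LRRC10B was low in all groups and had the largest mean change of the genes called higher in at least 2 ATs. In RAD its TPM ranged from 0.191 to 1.66 in NC (median 0.682), from 0.423 to 8.34 in WG (2.13) and from 1.40 to 8.77 in WL (3.25). The log2 fold changes were 1.48, 1.86 and 1.56 in GOM, RAD and ULB, and 0.78 in MAD with an adjusted p of 0.082 in edgeR.

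PCLAF, a partner of the replication clamp PCNA that is high in dividing cells, was called higher in MAD and RAD through few libraries. In WL MAD it stood at 58.5, 196 and 87.2 TPM in replicates 1, 6 and 7 and between 5.52 and 12.3 in the other 7. CD79B, a B cell receptor chain, stood at 63.6, 180 and 94.4 TPM in those 3 libraries and between 0.99 and 3.41 in the rest. Without them the log2 fold change of PCLAF in MAD went from 3.39 to 0.95 (adjusted p = 0.092, edgeR), and without WL RAD replicate 6 that in RAD went from 1.23 to 0.37 (adjusted p = 0.37). The MAD calls of EGR1, GTPBP3, FCHSD1, TMCO6 and DAB2IP were also lost without the 3 MAD libraries, and the genes of member bins called in MAD went from 37 to 26.

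RBPMS2, an RNA-binding protein known from smooth muscle, had the largest fall. It starts at chr1:107259302 in a bin whose index was 4.28 (NC), 5.20 (WG) and 5.77 (WL), so the RNA and the index of the bin went opposite ways. In GOM its TPM ranged from 7.5 to 19.6 in NC (median 12.9), from 0 to 22.8 in WG (2.21) and from 0.810 to 6.50 in WL (1.91). NC and WL were apart in GOM, with a log2 fold change of -2.68 ± 0.33 (SE; adjusted p = 1.2e-06, edgeR). In MAD, RAD and ULB, where the libraries overlapped, the values were -3.76, -3.00 and -2.14, and on the TPM scale the ULB call was not kept. Of 6 smooth muscle markers, 3 were called lower and 1 higher in MAD, and 3 higher and 0 lower in RAD. In GOM 1 was called each way, and in ULB none. The summed level of these markers had a median of 919 TPM in NC MAD and reached 13129 in its highest library. In WL MAD it reached 2569. The part of muscle cells in the RBPMS2 calls was not tested.

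EGR1, an immediate-early transcription factor, starts in a bin of the highest index among those named here (6.25 in NC and 7.91 in WL). Its RNA was called lower in GOM (-1.79, medians of 75.3 TPM in NC and 24.8 in WL) and MAD (-1.0), the latter not kept on the TPM scale.

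AKAP12, a scaffold for protein kinase A, was lower in GOM and MAD (log2 fold changes of -0.99 and -0.92) and RABEPK, an effector of Rab9, in RAD and ULB (-1.18 and -1.28), on both scales. TGFB2, a transforming growth factor β ligand that starts at chr10:8306136, was lower in GOM (-0.70) and MAD (-0.86), of which the MAD call was kept on the TPM scale, and FAM221B in GOM (-1.02) and MAD (-1.56), of which the MAD call was kept. SRSF12, a splicing factor, was lower in GOM and RAD, WDR31 in GOM, MAD and RAD and TLR5, the receptor of bacterial flagellin, in GOM (-0.66) and RAD (-0.73). None of the SRSF12, WDR31 and TLR5 calls was kept on the TPM scale. WDR31 overlaps RNF183 on the same strand, and reads of these genes may be shared. TLR5 lay in a run whose index rose from -8.37 in NC to -6.26 in WL, and its GOM levels overlapped, at 4.54 to 17.6 TPM in NC and 4.08 to 12.4 in WL.

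**Figure D5:**
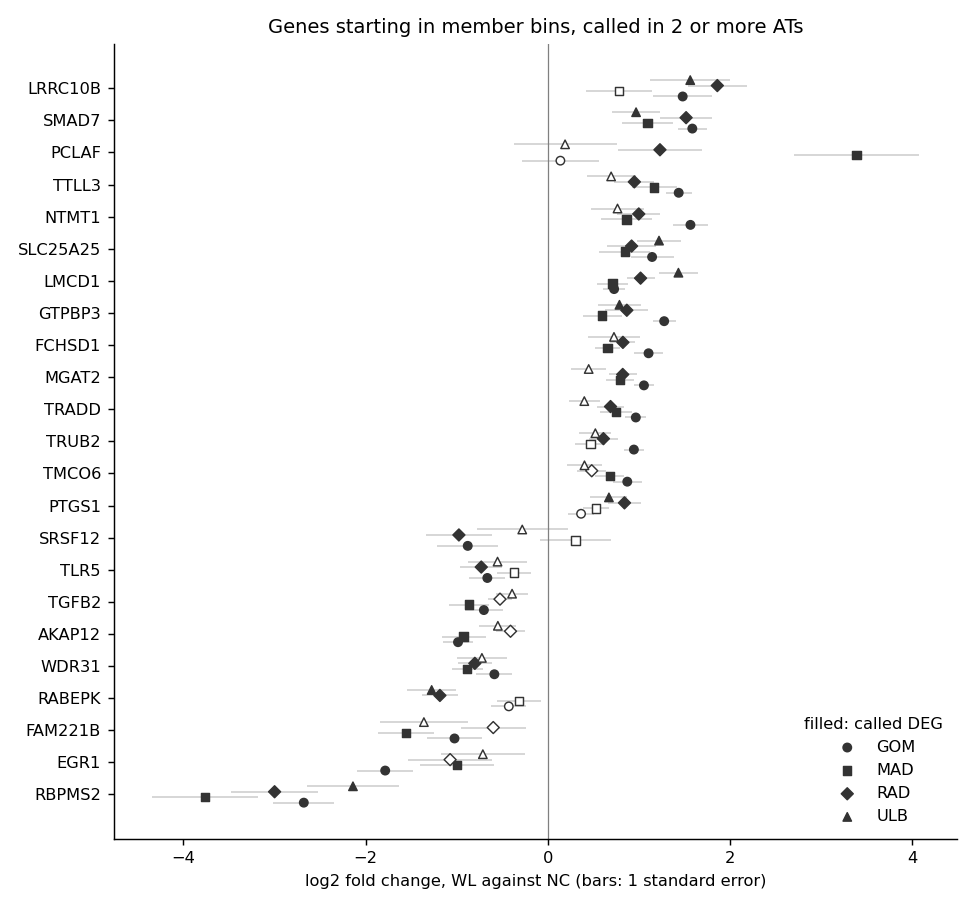
Log2 fold change of WL against NC (edgeR, bars of 1 SE) of genes that start in member bins and were called in the same direction in at least 2 ATs, 1 marker per AT, filled where called, for the genes reported here. SMAD7, SLC25A25, LMCD1 and GTPBP3 are filled to the right of 0 in all 4 ATs, and RBPMS2 to the left.

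The 6 genes with the highest mean level were called in 1 AT at most. ARHGEF39, a guanine nucleotide exchange factor, averaged 1437 TPM but ranged from 25.6 to 5060 TPM within NC ULB, and was called higher in GOM (log2 fold change 3.34) and not in the other ATs. TLN1, which links integrins to actin, and COL15A1, a basement membrane collagen, were called higher in ULB (0.91 and 0.88), where WL libraries (332 to 680 and 219 to 496 TPM) lay above all NC libraries (175 to 252 and 101 to 195). VCP, CSNK1A1 and PODN were called in no AT. DAB2IP, a Ras GTPase-activating protein of a long run, was called lower in MAD (-0.67) and on the TPM scale in no AT.

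Of all 18688 autosomal PCGs, 177 (0.947%) start in member bins, and at that share a short list holds no gene or 1. Of the marker lists and pathways examined (adipocytes, adipose progenitors, immune, vascular, mesothelial and muscle cells, lipogenesis, lipolysis, fatty acid oxidation and collagens), CD14, a monocyte and macrophage receptor, was the sole gene to start there, and it was called in no AT in WL against NC (-0.28, 0.43, 0.12 and -0.05). None of 17 adipocyte markers, 36 HOX genes, 35 keratin genes or 242 ZNF genes did, and 3 of 337 solute carriers (SLC25A25, SLC31A1 and SLC31A2) and 2 of 83 ribosomal protein genes started there. Genes of these lists were called elsewhere in the genome. Of 13 macrophage markers, 10 were called higher in MAD and 8 in RAD with none lower, 3 lower and none higher in GOM, and none either way in ULB. In MAD 8 of 8 T cell and 6 of 7 B and plasma cell markers were called higher, where WL replicates 1, 6 and 7 had the high CD79B levels given above. In GOM, RAD and ULB 2, 2 and 3 T cell markers were called higher, and 1, 2 and 0 B and plasma cell markers higher and 1 lower each. Of 13 lipogenesis genes, 7, 11, 9 and 8 were called lower in WL (GOM, MAD, RAD, ULB) and 1, 0, 0 and 2 higher. Of 16 adipocyte markers, 11 were called lower and 1 higher in MAD, 7 and 1 in RAD, 4 and 4 in GOM, and 4 and 1 in ULB. The summed macrophage markers ranged from 326 to 998 TPM in NC MAD and from 786 to 3371 in WL MAD, with no marker at 0 in all libraries. Their part in the index and in the gene calls was not tested.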

How the data were processed

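Hi-C, H3K27ac ChIP-seq and RNA-seq were made by the study from the ATs of pigs on 3 diets. Per the labels and the study's methods, reads were aligned to Sscrofa11.1, and the submitters' processing notes name BWA 0.7.15, SAMtools 1.3.1, SICER and kallisto 0.43.0. The deposited A-B index is a score per 20 kb bin and sample with no depth. The authors deposited estimated counts and TPM from kallisto per gene, TAD positions per sample and enhancer positions per diet and AT. Columns that matched no sample (9 in the index table and 9 in the RNA table) were not used, and counts of long noncoding RNAs were not tested.

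The index was quantile normalised over all samples, and bins were ranked by the mean over 4 ATs of the WL minus NC difference. The bins and all gene lists were chosen with earlier results of these data known. Held-out ATs were compared with limma 3.58.1. Estimated counts were rounded, and PCGs with TPM above 0.5 in at least 80% of either group were compared with edgeR 4.0.16 (TMM scaling, quasi-likelihood test, Benjamini-Hochberg adjustment, 1.5-fold), with DESeq2 1.42.0 as an alternative, in R 4.3.3. Libraries held 3337098 to 22939420 counts. RefSeq starts were matched to deposited identifiers by symbol, for 13064 of 21280 deposited genes. Genes named were those starting in member bins and called the same way in at least 2 ATs (24 of 30, by mean absolute log2 fold change), those of the 10 highest bins and 5 longest runs, the 6 with the highest mean TPM, and members of the lists. A gene among the 24 is not reported here. Both limma and edgeR were tested on simulated data. Replicate numbers only name samples, since NC and WL are different pigs, and p-values measure the spread between pigs of a group. Alternatives covered normalization, filters, left-out libraries, the replicate block and the overlap rules.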

Additional observations from a re-analysis of the deposited data

Results flagged for a closer look

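Among 18 groups of sample means of the index, 4 had a sample far from the others, where chance gives about 1 in 20 groups. Over all member bins, the lowest of the 10 WL samples was 2.16 in GOM and 2.57 in MAD, replicate 10 in both. Over the member bins outside chromosome 10 the lowest WL MAD sample was at 3.58. On chromosome 10 the highest of the 9 NC GOM samples was at 0.488, while the group's median was -3.95. Without both replicate 10 samples, 476 of the 500 bins were chosen again.

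Among 104 groups of gene levels, 13 had a library far above the other libraries of its diet and AT. PCLAF stood at 196 TPM in 1 WL MAD library and at 49.3 in 1 WL RAD library. In WL RAD the highest library also stood apart for LRRC10B (8.77 TPM), SLC25A25 (51.3), FCHSD1 (12.0) and WDR31 (4.11), and in WL MAD for SLC25A25 (44.9). In WL GOM this was so for EGR1 (98.8 TPM), FAM221B (1.97), TGFB2 (60.7) and ARHGEF39 (5149). In NC GOM it was so for TTLL3 (82.3 TPM) and TMCO6 (9.62).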

How the results depend on the processing

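Of the alternative values of the main results, most stayed within 1.5 times the main count or 1 SD, and none turned direction. With the index as deposited, the RAD difference was 1.93 and 435 of the 500 bins were chosen again. A mean of 3 adjacent bins chose 271 again, a median over samples 343, the visceral ATs alone 414, and leaving out NC ULB samples one at a time 464 to 480. Of the alternatives chosen after seeing the data, normalisation within each chromosome chose 395 again, and the ULB count of the held-out comparison was then 151, against 162 to 255 when an NC ULB sample or WL GOM replicate 9 was left out. With an 80% rule 27 member bins were B in all 4 ATs in NC and 11 in WL. Counting neighbouring bins, TAD boundaries met 68.3, 67.3, 80.8 and 98.2 member bins in NC GOM, MAD, RAD and ULB, and 75.4, 71.8, 68.6 and 84.0 in WL. Super-enhancer regions met 137, 116, 176 and 132 in NC and 152, 197, 148 and 193 in WL. As shares these were 27.4%, 23.2%, 35.2% and 26.4% in NC, against 8.85%, 6.23%, 8.84% and 6.97% of all bins. In WL they were 30.4%, 39.4%, 29.6% and 38.6%, against 8.23%, 8.56%, 7.17% and 9.17%. Regions over at least 10 kb of the bin met 246 in NC MAD and 249 in NC ULB, against 16.2% and 16.9% of all bins. Genes overlapping a member bin, with or without their start, gave 72, 74, 57 and 26 DEGs of WL against NC in GOM, MAD, RAD and ULB. Such genes numbered 300, against 177 that start there, before matching to identifiers. Of all genes tested, 36.1%, 33.1%, 26.7% and 14.8% were called. Of the genes that start in member bins, limma on log2 TPM called 45 in RAD and 23 in ULB, and DESeq2 20 in ULB. Over all genes, limma then called 3775 higher and 981 lower of 13782 in RAD and 2384 and 491 of 13878 in ULB. DESeq2 called 908 and 1497 of 13878 in ULB. In WG against NC the share of PCGs as a term gave 55 in GOM and 0 in ULB, no filter gave 28 in RAD and 2 in ULB, and leaving out NC ULB samples gave 0 to 1 in ULB. Over all genes the share of PCGs gave 2958 higher and 3055 lower of 14251 in GOM, and 22 and 79 of 13600 in ULB. No filter gave 1352 and 3044 of 20707 in RAD and 178 and 946 of 20666 in ULB. Leaving out NC ULB samples gave 22 to 111 higher and 88 to 271 lower. In WL against WG, DESeq2, the share of PCGs and no filter gave 2 each in GOM, and the share of PCGs gave 5 in MAD. Over all genes DESeq2 gave 358 higher and 594 lower of 13906 in GOM, and the share of PCGs 145 and 312. No filter gave 689 and 378 of 20816 in GOM, and the share of PCGs 453 and 669 of 13918 in MAD.

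Same-numbered NC and WL samples did not deviate together: correlations of the index deviations ranged from -0.44 to 0.23 and of the RNA deviations from -0.28 to 0.33. The replicate block in edgeR leaves out samples of either group without a same-numbered sample in the other. With it, member-bin DEGs of WL against NC in ULB went to 1. Those of WG against NC went to 1, 0, 4 and 0 in GOM, MAD, RAD and ULB. Over all genes, WL against NC in ULB went from 748 higher and 1300 lower to 97 and 218. WG against NC went from 1741 and 2071 to 140 and 658 in GOM, and from 745 and 732 to 11 and 2 in MAD. In RAD it went from 963 and 1303 to 362 and 419, and in ULB from 69 and 254 to 0 and 0. The edgeR block kept 56 of 71 named WL against NC calls. In limma, where the block left out no sample, the held-out counts were 357, 413, 451 and 258. Of the same 71 calls DESeq2 kept 70, upper-quartile scaling 69, no filter 66, the share of PCGs 64 and limma on log2 TPM 57, with none reversed. The cause of these changes was not tested. The index has no depth per bin, and NC ULB holds 5 samples.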
